A study of Rattus norvegicus with 12 samples.

Results

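The AMPA and NMDA receptor subunit genes were followed through brain RNA of an Alzheimer's disease model. They are the 10 rows of the raw count table whose symbol is Gria1, Gria2, Gria3, Gria4, Grin1, Grin2a, Grin2b, Grin2c, Grin2d or Grin3a, out of 31177 rows in all. All 10 were among the 18850 genes with enough counts to be tested, and their counts ran from 36 reads for Grin3a in AD-HFD-4 to 17868 reads for Gria2 in Sham-4. The 12 libraries fall into 3 groups of 4: the disease model on a diet high in fat (AD-HFD), the disease model without it (AD), and a control called Sham. How the disease was modelled, and the animals' strain, age, sex, brain region and number per library, were not given in the labels. They call the animals mice, while the organism field and the Ensembl identifiers give rat, which is how the samples are treated. A diet-only group was not analysed here. Whether the libraries are separate animals is not stated, and p-values then measure only the spread between libraries. Sequencing depth lay between 26668974 counts (AD-4) and 35351792 counts (Sham-1).

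AMPA and NMDA receptors are the main fast glutamate receptors of the brain: channels built from several subunits and set in the membrane facing a glutamatergic nerve ending. Gria1 to Gria4 encode the AMPA subunits GluA1 to GluA4, which carry most fast excitatory current, and the edited GluA2 subunit keeps the channel nearly closed to calcium. NMDA receptors combine the obligatory subunit GluN1, encoded by Grin1 and binding the co-agonists glycine and D-serine, with glutamate-binding GluN2 subunits (Grin2a to Grin2d) or GluN3 subunits. They pass calcium when glutamate coincides with a depolarised membrane, and are known for their part in synaptic plasticity. In rodents Grin2a and Grin2b prevail in the forebrain, Grin2c in cerebellar granule cells, and Grin2d in the diencephalon and brain stem.

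Libraries within a group were not alike in markers of brain region and of neurons. Slc17a7, the vesicular glutamate transporter of cortical neurons, had 310.5, 543, 1257 and 288 CPM (counts scaled to library size) in AD-HFD-1 to AD-HFD-4, 99.5, 4.29, 828 and 43.2 CPM in AD-1 to AD-4 and 1585, 1223, 1462 and 1704 CPM in Sham-1 to Sham-4. Tcf7l2, a transcription factor abundant in thalamus, had 11.6, 13.1, 5.72 and 14.1 CPM in the AD-HFD libraries, 391, 99.1, 6.25 and 223 CPM in the AD libraries and 5.17, 9.30, 9.70 and 7.60 CPM in the Sham libraries. AD-3 thus stood apart from the rest of its group, with more of the cortical and less of the thalamic marker. AD-4 differed too: the 12 hypothalamus markers summed to 1897 CPM in it, against 17.9, 19.4 and 118 CPM in AD-1 to AD-3. In Sham they summed to 3.07 to 7.42 CPM, and of 11 tested 4 were called higher in AD than in Sham and 0 lower. Choroid plexus markers summed to 1.99, 4555, 4489 and 7.13 CPM in Sham-1 to Sham-4, and to 22.4 to 10352 CPM in AD-HFD. Over the whole lists, 0 of 12 cortex markers passed the test as higher and 5 as lower in AD than in Sham, and 7 of 10 thalamus markers passed as higher and 0 as lower. The mean log2 CPM of the 12 cortex markers ran from 4.24 to 6.67 in AD-HFD, from 1.06 to 5.57 in AD and from 6.89 to 7.18 in Sham, and that of the 10 thalamus markers from 1.20 to 2.07 in AD-HFD, from 1.53 to 6.21 in AD and from 1.05 to 2.18 in Sham. The summed level of 10 general neuron markers ran from 1936 to 8031 CPM in AD-HFD, from 7109 to 8901 CPM in AD and from 9233 to 11891 CPM in Sham, with AD-HFD-3 highest of its group. None of these neuron markers was at 0 in any library. Among cortex markers Emx1 and Fezf2 were each at 0 in 1 AD library, and among thalamus markers Gbx2, Shox2 and Irx2 were at 0 in 1 or more libraries. The part of these differences in the subunit results was not tested, beyond the fits without single libraries and with the neuron markers that are given here. In bulk tissue, fewer cells of a type and less RNA per cell cannot be told apart.

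Receptor subunit RNA was lower in both disease groups than in Sham for part of the family, and AMPA subunits accounted for all the calls. A gene counts as called where its adjusted p (Benjamini-Hochberg over all 18850 genes) in edgeR's quasi-likelihood test was under 0.05. In AD-HFD against Sham, 3 of 10 members were called lower (Gria2, Gria3 and Gria4) and 0 higher, in a comparison where 12.9% of all genes were called lower and 32.7% were called in either direction. At an unadjusted p under 0.05, 5 were lower and 0 higher, where 19.6% of all genes were lower and 25.8% higher. In 3 of 10 all AD-HFD libraries lay below all Sham libraries, as in 16.2% of all genes. All 10 members had a negative log2 fold change there, as did 48.4% of all genes, and their median was -1.14, against 0.03 over all genes. The 10 general neuron markers were all negative there too, with a median of -1.34, and 7 were called lower and 0 higher. Fits without 1 library called 3 to 10 of these markers lower. In AD against Sham, 1 of 10 (Gria3) was called lower and 0 higher, where 3.16% of all genes were called lower and 6.23% in either direction. At an unadjusted p under 0.05, 3 were lower, where 10.7% of all genes were, and Grin2d was higher, where 13.3% were. For 5 of 10 (Gria1, Gria2, Gria3, Grin1 and Grin2a) all AD libraries lay below all Sham libraries, as for 11.3% of all genes. The members' median was -0.53 in that comparison, against 0.06 over all genes, and 7 of 10 were below 0, where 45.1% of all genes were. For the general neuron markers the median was -0.17, with 7 of 10 below 0 and 0 called.

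In AD-HFD against AD, no member was called by edgeR, where 0.0106% of all genes were. At an unadjusted p under 0.05, 4 of 10 members were lower in AD-HFD than in AD, where 13.4% of all genes were. DESeq2 called 3 of them lower (Gria4, Grin2c and Grin2d), where it called 17.6% of all genes in either direction. Limma voom called 0 members, and 0.0106% of all genes. Both groups overlapped in all 10 members, while in 2.74% of all genes every AD-HFD library lay below every AD library. The log2 fold change was below 0 for 7 of 10 members, as for 47.4% of all genes. The members' median log2 fold change was -0.52, against 0.04 over all genes and -0.89 over the 10 general neuron markers. Of those markers 0 were called, and 7 were lower at an unadjusted p under 0.05. The comparisons with Sham share its 4 libraries, and both comparisons with AD share the AD libraries, so the 3 sets of values are not independent of each other.

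**Figure D1:**
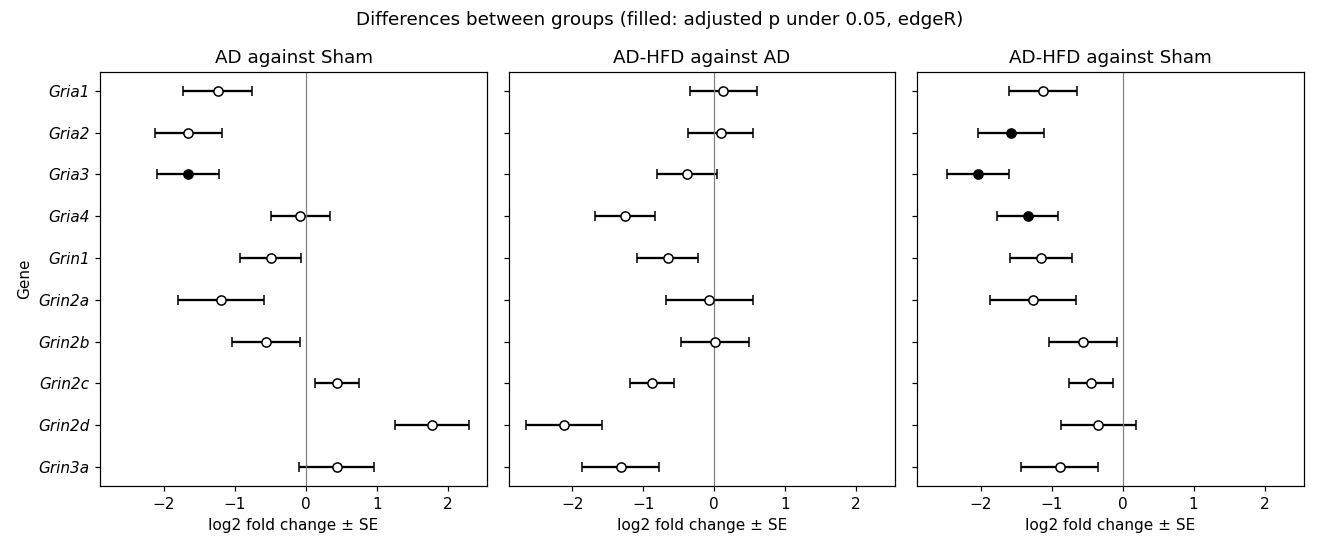
Log2 fold change of each of the 10 subunit genes (vertical positions) in AD against Sham, AD-HFD against AD and AD-HFD against Sham (panels), with bars of 1 SE; filled points passed an adjusted p under 0.05. Gria3 is filled in both comparisons with Sham, and Grin2d has the largest values of opposite sign, above 0 in AD against Sham and below 0 in AD-HFD against AD.

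Among the AMPA subunits, Gria3 (GluA3) was lower than in Sham in every disease library. It had 48.4, 55.6, 184 and 35.1 CPM in AD-HFD-1 to AD-HFD-4, 115, 91.0, 132 and 83.6 CPM in AD-1 to AD-4 and 401, 297, 298 and 336 CPM in Sham-1 to Sham-4. No library of either disease group reached the lowest Sham value, although AD-HFD-3 lay well above the other AD-HFD libraries. Gria3 had a log2 fold change of -2.05 ± 0.436 (SE) in AD-HFD against Sham, which is 4.13-fold lower (adjusted p = 0.00667). Set against Sham in AD, its log2 fold change was -1.66 ± 0.431, 3.17-fold lower (adjusted p = 0.0428). The first of these calls was kept in each of the 12 fits that left out 1 library, with log2 fold changes from -2.85 to -1.80 and adjusted p from 9.49e-05 to 0.0240. The second was lost without any 1 of the Sham libraries (adjusted p from 0.0779 to 0.123), and without AD-HFD-2 (0.0525), AD-4 (0.115), AD-2 (0.0985) or AD-1 (0.0869), while its log2 fold change stayed between -1.79 and -1.53 over all 12 fits. Without AD-3 the call was kept (-1.79 ± 0.490, adjusted p = 0.0371).

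Gria2, the calcium-limiting subunit GluA2, had 115, 108, 400.2 and 51.8 CPM in AD-HFD-1 to AD-HFD-4, 177, 151, 146 and 161 CPM in AD-1 to AD-4 and 522, 516, 409.7 and 561 CPM in Sham-1 to Sham-4. The highest disease library was AD-HFD-3, which came close to the lowest Sham library, and the other 7 disease libraries were at 176.9 CPM or below. The 4 AD libraries lay within a narrow range, all below Sham. Gria2 was lower in AD-HFD than in Sham, with a log2 fold change of -1.57 ± 0.469 and an adjusted p of 0.0253, 2.98-fold lower. That call was lost without AD-HFD-1 (adjusted p = 0.0692), AD-HFD-2 (0.0664), Sham-1 (0.0617) or Sham-4 (0.0590). It was also lost with the AD-HFD and Sham libraries alone (adjusted p = 0.0559). The log2 fold change of Gria2 in AD against Sham was of like size, -1.66 ± 0.471, and did not pass the test (adjusted p = 0.0583). It passed by DESeq2 (adjusted p = 0.00805), with the AD and Sham libraries alone (0.000737), and in the edgeR fits without AD-HFD-3 (-1.66 ± 0.223, adjusted p = 0.00208) and without AD-HFD-4 (-1.66 ± 0.362, adjusted p = 0.0202). The 3 groups share 1 estimate of the spread.

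Gria1 (GluA1), a subunit recruited to synapses in some forms of plasticity, had 36.1, 38.9, 146 and 18.9 CPM in AD-HFD-1 to AD-HFD-4, 53.9, 46.8, 66.2 and 53.0 CPM in AD-1 to AD-4 and 125, 133, 109.8 and 155 CPM in Sham-1 to Sham-4. Its AD values all lay below those of Sham, and its AD-HFD values overlapped Sham only through AD-HFD-3. Neither difference passed the test: the log2 fold change was -1.12 ± 0.478 in AD-HFD against Sham (adjusted p = 0.0884) and -1.25 ± 0.479 in AD against Sham (adjusted p = 0.138). Both passed in the fit without AD-HFD-3, at -2.06 ± 0.247, adjusted p = 0.000236 and -1.25 ± 0.216, adjusted p = 0.00633. The first also passed by limma voom (adjusted p = 0.0268) and the second with the AD and Sham libraries alone (0.00283).

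Gria4 (GluA4), the subunit of fast AMPA channels, differed from the other AMPA genes in which libraries were low. It had 61.1, 43.2, 88.3 and 20.0 CPM in AD-HFD-1 to AD-HFD-4, 176, 161, 48.0 and 125 CPM in AD-1 to AD-4 and 139, 137, 114 and 147 CPM in Sham-1 to Sham-4. AD libraries 1, 2 and 4 lay in or above the range of Sham and AD-3 far below it, while all 4 AD-HFD libraries were below Sham. Gria4 had a log2 fold change in AD-HFD against Sham of -1.34 ± 0.428, 2.53-fold lower (adjusted p = 0.0331). The call was lost without AD-HFD-1 (adjusted p = 0.0603), AD-HFD-2 (0.0781), AD-HFD-4 (0.0668), Sham-1 (0.0759), Sham-2 (0.0564), Sham-3 (0.0523) or Sham-4 (0.0728). Its log2 fold change in AD against Sham was -0.08 ± 0.420 (adjusted p = 0.934), and without AD-3 it was above 0, at 0.19 ± 0.365, adjusted p = 0.778. In AD-HFD against AD it was -1.26 ± 0.428 (adjusted p = 0.0863), and it passed without AD-3 (-1.53 ± 0.366, adjusted p = 0.0119) or without AD-HFD-3 (-1.62 ± 0.433, adjusted p = 0.0203).

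**Figure D2:**
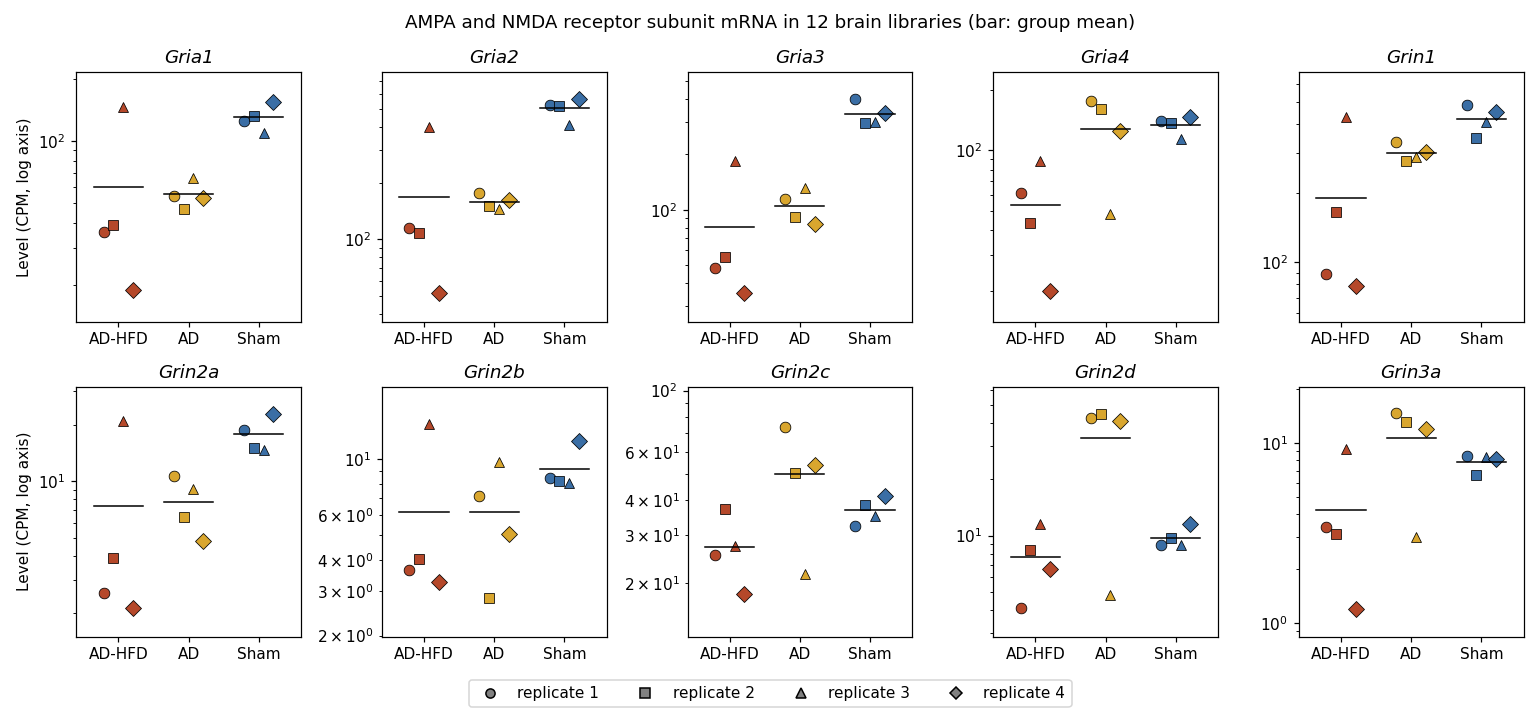
Level of each of the 10 subunit genes in CPM (vertical, log scale) in the 4 AD-HFD, 4 AD and 4 Sham libraries, with 1 point per library and a bar at each group mean. The AD-HFD point that lies above the other 3 for Gria1, Gria2, Gria3 and Grin1 is AD-HFD-3, and the AD point below the other 3 for Gria4, Grin2c, Grin2d and Grin3a is AD-3.

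Grin1, the subunit that every NMDA receptor needs, had 88.3, 165, 431 and 78.4 CPM in AD-HFD-1 to AD-HFD-4, 334, 276, 289 and 302 CPM in AD-1 to AD-4 and 483, 348, 409 and 452 CPM in Sham-1 to Sham-4. The 4 AD libraries lay within a narrow range just below Sham, and AD-HFD-1, AD-HFD-2 and AD-HFD-4 lay lower still, while AD-HFD-3 was within the range of Sham. Its mean was 191 ± 165 CPM in AD-HFD, 300.4 ± 25.1 CPM in AD and 423 ± 58.4 CPM in Sham (SD, n = 4 each). The log2 fold change was -1.15 ± 0.435 in AD-HFD against Sham (adjusted p = 0.0600), -0.66 ± 0.431 in AD-HFD against AD (adjusted p = 0.319) and -0.49 ± 0.430 in AD against Sham (adjusted p = 0.520), and none passed in edgeR with all libraries. The first passed by DESeq2 (adjusted p = 0.0275) and limma voom (0.0226), and the last with the AD and Sham libraries alone (0.0419). Without AD-HFD-3, Grin1 was called lower in AD-HFD than in Sham (-1.94 ± 0.247, adjusted p = 0.000285) and than in AD (-1.44 ± 0.242, adjusted p = 0.00593).

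The forebrain subunit genes Grin2a and Grin2b had lower levels in most disease libraries. Grin2a, whose GluN2A subunit gives fast-decaying currents and increases after birth in rodents, had 2.53, 3.89, 20.9 and 2.13 CPM in AD-HFD-1 to AD-HFD-4, 10.7, 6.48, 9.05 and 4.79 CPM in AD-1 to AD-4 and 18.7, 14.9, 14.6 and 22.7 CPM in Sham-1 to Sham-4. Its AD values were all below those of Sham, and AD-HFD-3 lay within Sham while the other 3 AD-HFD libraries were at 3.89 CPM or below. Its log2 fold change did not pass in AD-HFD against Sham (-1.26 ± 0.611, adjusted p = 0.127) or in AD against Sham (-1.19 ± 0.610, adjusted p = 0.258), and both passed without AD-HFD-3, at -2.64 ± 0.333, adjusted p = 0.000277 and -1.19 ± 0.276, adjusted p = 0.0207. The first also passed by limma voom (adjusted p = 0.0204) and the second with these 2 groups alone (0.0244). Grin2b, whose GluN2B subunit prevails early in life, had 3.65, 4.02, 13.9 and 3.26 CPM in AD-HFD-1 to AD-HFD-4, 7.14, 2.83, 9.75 and 5.04 CPM in AD-1 to AD-4 and 8.44, 8.24, 8.03 and 11.8 CPM in Sham-1 to Sham-4. AD-HFD-3 held the highest Grin2b value of all 12 libraries, and both disease groups overlapped Sham. Its log2 fold change was -0.56 ± 0.478 in AD-HFD against Sham (adjusted p = 0.385) and -0.56 ± 0.479 in AD against Sham (adjusted p = 0.512). Without AD-HFD-3, Grin2b was called lower in AD-HFD than in Sham (-1.33 ± 0.362, adjusted p = 0.0122).

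Grin2c and Grin2d had their highest values in the AD libraries other than AD-3. The cerebellum marker Gabra6 was at 0.646 CPM or below in all 12 libraries. The mean log2 CPM of 8 cerebellum markers ran from -0.45 to 1.10 in AD-HFD. It ran from 0.96 to 1.53 in AD and from 0.28 to 1.09 in Sham. Which tissue or cells the Grin2c RNA came from was not tested. Grin2d (GluN2D), which gives very slowly decaying currents, had 4.11, 8.38, 11.6 and 6.65 CPM in AD-HFD-1 to AD-HFD-4, 42.8, 44.8, 4.80 and 41.1 CPM in AD-1 to AD-4 and 8.88, 9.65, 8.91 and 11.6 CPM in Sham-1 to Sham-4. AD libraries 1, 2 and 4 were far above every other library, and AD-3 was below all 4 Sham libraries, so the AD group fell on both sides of Sham. Against Sham, the log2 fold change in AD was 1.77 ± 0.526 (adjusted p = 0.0658), while AD-HFD against AD gave -2.12 ± 0.534 (adjusted p = 0.0605), and neither passed in edgeR with all libraries. By DESeq2 both passed (adjusted p = 0.0111 and 0.00278). Without AD-3 both passed, at 2.14 ± 0.270, adjusted p = 0.00105 and -2.48 ± 0.273, adjusted p = 0.000481. With AD-3 as the lone AD library, which is then assumed to vary like the other groups, the signs were turned, at -1.03 ± 0.512, adjusted p = 0.274 and 0.68 ± 0.503, adjusted p = 0.722. The value in AD-HFD against Sham was -0.34 ± 0.524 (adjusted p = 0.636).

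Grin2c (GluN2C) had 25.3, 37.4, 27.4 and 18.3 CPM in AD-HFD-1 to AD-HFD-4, 73.8, 50.3, 21.6 and 53.6 CPM in AD-1 to AD-4 and 32.4, 38.6, 35.1 and 41.6 CPM in Sham-1 to Sham-4. It is the member for which AD-HFD-3 was not the highest library of its group, and the groups overlapped in all 3 comparisons. Its log2 fold change was -0.88 ± 0.312 in AD-HFD against AD (adjusted p = 0.0940), -0.45 ± 0.310 in AD-HFD against Sham (adjusted p = 0.280) and 0.43 ± 0.309 in AD against Sham (adjusted p = 0.426), with no call in any. It was called lower in AD-HFD than in AD without AD-3 (-1.13 ± 0.223, adjusted p = 0.00560). Grin3a, whose GluN3A subunit lowers calcium entry through the receptor, had 3.42, 3.12, 9.25 and 1.20 CPM in AD-HFD-1 to AD-HFD-4, 14.6, 13.0, 3.02 and 11.9 CPM in AD-1 to AD-4 and 8.41, 6.58, 8.30 and 8.17 CPM in Sham-1 to Sham-4. As for Gria4, Grin2c and Grin2d, AD-3 lay below the other AD libraries and below Sham. The other 3 AD libraries lay above every Sham library for Grin3a, as for Grin2c and Grin2d, while for Gria4 AD-4 was within Sham. The log2 fold change of Grin3a was -1.32 ± 0.543 in AD-HFD against AD (adjusted p = 0.130), -0.88 ± 0.543 in AD-HFD against Sham (adjusted p = 0.222) and 0.43 ± 0.527 in AD against Sham (adjusted p = 0.658). It was called lower in AD-HFD than in AD without AD-3 (-1.62 ± 0.466, adjusted p = 0.0240) and without AD-HFD-3 (-2.04 ± 0.498, adjusted p = 0.0148).

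The members whose AD-3 value lay below all 4 Sham libraries while most of the other AD libraries lay above them (Gria4, Grin2c, Grin2d and Grin3a) are shown here by their promoters, with that of Grin1, the obligatory NMDA subunit, beside them. RefSeq tables for the rat assembly GRCr8 held the 300 bases from 250 before to 50 after the gene start for 5 of the 10 members, Gria4, Grin1, Grin2c, Grin2d and Grin3a. All are on the minus strand and are written 5′ to 3′ in the direction of the gene, at chr8:10319832-10320131 (Gria4), chr10:101005089-101005388 (Grin2c), chr1:105481187-105481486 (Grin2d), chr5:69001509-69001808 (Grin3a) and chr3:28528705-28529004 (Grin1). Capitals mark matches, on either strand, to the motifs searched.
Gria4: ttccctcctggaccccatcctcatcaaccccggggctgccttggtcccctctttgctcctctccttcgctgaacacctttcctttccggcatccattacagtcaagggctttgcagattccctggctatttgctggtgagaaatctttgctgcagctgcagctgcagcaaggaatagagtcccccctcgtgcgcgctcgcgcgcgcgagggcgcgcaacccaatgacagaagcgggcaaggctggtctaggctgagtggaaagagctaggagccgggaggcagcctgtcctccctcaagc
Grin2c: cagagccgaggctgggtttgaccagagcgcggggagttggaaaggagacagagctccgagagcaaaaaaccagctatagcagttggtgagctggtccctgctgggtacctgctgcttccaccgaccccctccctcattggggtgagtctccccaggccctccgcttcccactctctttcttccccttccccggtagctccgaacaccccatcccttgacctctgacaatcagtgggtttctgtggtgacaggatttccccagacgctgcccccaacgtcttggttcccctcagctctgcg
Grin2d: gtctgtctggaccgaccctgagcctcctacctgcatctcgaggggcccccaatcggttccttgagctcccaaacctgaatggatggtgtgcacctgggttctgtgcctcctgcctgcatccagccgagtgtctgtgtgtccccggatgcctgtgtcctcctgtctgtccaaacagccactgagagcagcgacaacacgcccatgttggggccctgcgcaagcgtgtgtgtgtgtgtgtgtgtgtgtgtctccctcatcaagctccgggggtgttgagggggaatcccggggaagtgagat
Grin3a: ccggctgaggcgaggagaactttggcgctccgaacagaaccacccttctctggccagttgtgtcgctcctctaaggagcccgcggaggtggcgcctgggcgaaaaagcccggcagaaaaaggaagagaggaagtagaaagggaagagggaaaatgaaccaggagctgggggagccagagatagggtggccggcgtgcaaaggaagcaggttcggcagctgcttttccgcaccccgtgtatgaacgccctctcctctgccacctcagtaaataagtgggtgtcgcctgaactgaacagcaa
Grin1: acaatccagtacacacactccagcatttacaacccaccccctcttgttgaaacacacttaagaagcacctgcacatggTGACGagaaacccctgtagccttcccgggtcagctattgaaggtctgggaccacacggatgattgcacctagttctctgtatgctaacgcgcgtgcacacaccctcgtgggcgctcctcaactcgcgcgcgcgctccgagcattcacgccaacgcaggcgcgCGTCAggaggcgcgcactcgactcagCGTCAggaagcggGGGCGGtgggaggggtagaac
The motifs were the GC box GGGCGG, the cyclic AMP response element TGACGTCA and its core TGACG (which the full element contains), the EGR1 motif GCGTGGGCG, the E-box CACGTG and the TATA motif TATAAA. Only Grin1 held any in its window, 1 GC box and 3 TGACG cores. Of 33469 rat promoters of the same length, 33.1% held the GC box and 21.2% the core, 1.83% the full element, 0.544% the EGR1 motif, 6.42% the E-box and 14.2% the TATA motif. None of these motifs was in the windows of Gria4, Grin2c, Grin2d and Grin3a. Whether the windows bear on the levels was not tested, and members without a window could not be compared. Their GC content was 60.3% for both Gria4 and Grin2c, 60.7% for Grin2d and 58.7% for Grin3a, and 59.7% for Grin1, against a median of 51.7% over all rat promoters. CpG pairs numbered 15 in Gria4, 11 in both Grin2c and Grin2d, 17 in Grin3a and 25 in Grin1, against a median of 7.

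**Figure D3:**
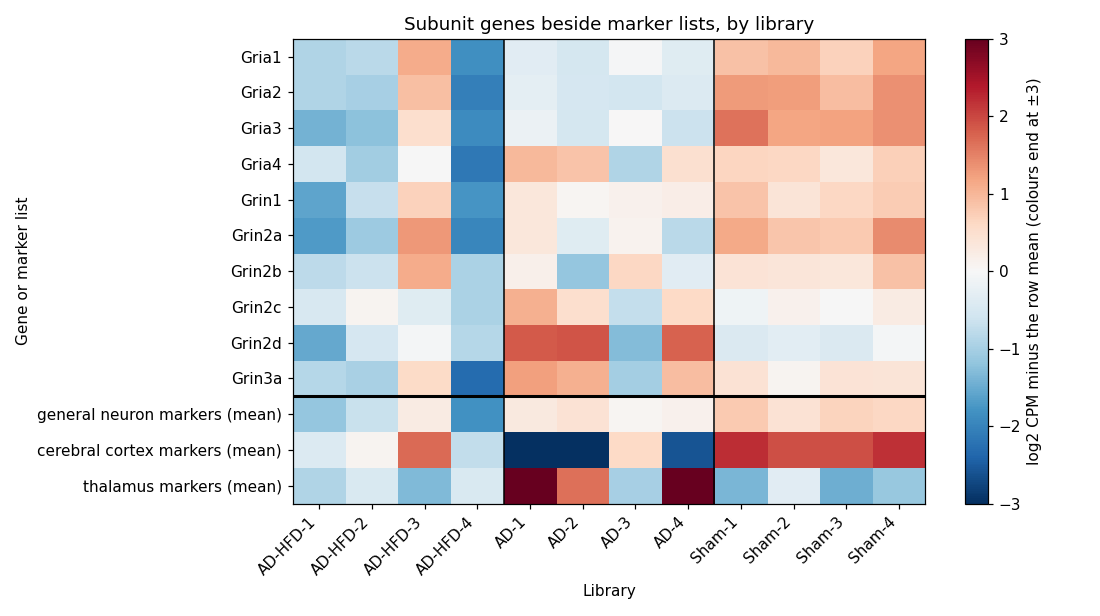
Log2 CPM of each of the 10 subunit genes and the mean of each marker list, centred over the 12 libraries (colour, in log2 units, ending at ±3), with the libraries as columns from AD-HFD through AD to Sham. AD-HFD-3 is close in colour to the Sham libraries for Gria1, Gria2, Grin1 and Grin2a, and AD libraries 1, 2 and 4 share high Grin2d with high thalamus markers.

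What was found for the diet within the disease model turned on AD-HFD-3 and AD-3. AD-HFD-3 was the highest of the 4 AD-HFD libraries for 9 of 10 members, and AD-HFD-4 the lowest for 9. The summed level of 7 oligodendrocyte markers was 31527, 29559, 6632 and 47522 CPM in AD-HFD-1 to AD-HFD-4, 12006 to 45611 CPM in AD and 8286 to 20103 CPM in Sham, so that AD-HFD-3 had the least and AD-HFD-4 the most. That of red blood cell markers was 132 CPM in AD-HFD-3 and 2314 CPM in AD-HFD-4, 138 to 319.8 CPM in AD and 72.6 to 186 CPM in Sham. In AD-HFD against Sham, 2 of the 7 oligodendrocyte and 4 of 4 tested red blood cell markers were called higher, and in AD-HFD against AD 0 of either were called. The part of these markers in the subunit results was not tested. Without AD-HFD-3, 8 of 10 members were called lower in AD-HFD than in AD, where 27.6% of all genes were called in either direction. Gria3 was then at -1.18 ± 0.209, adjusted p = 0.00612 and Gria2 at -0.79 ± 0.240, adjusted p = 0.0313. Gria1 was at -0.81 ± 0.236, adjusted p = 0.0272 and Grin2a at -1.44 ± 0.327, adjusted p = 0.0115, and only Grin2b and Grin2c were not called. For Gria1 and Gria2 this was a change of sign as well, since with all libraries the log2 fold changes in AD-HFD against AD were 0.13 ± 0.473 (adjusted p = 0.879) and 0.09 ± 0.459 (adjusted p = 0.914). Without AD-3, 4 of 10 were called lower (Gria4, Grin2c, Grin2d and Grin3a), where 30.3% of all genes were called in either direction. In the 10 fits that left out any other single library, edgeR called 0 members, and 0% to 0.0208% of all genes.

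The counts against Sham moved in the same way. In AD-HFD against Sham, 8 of 10 members were called lower without AD-HFD-3 (all but Grin2c and Grin2d). Of all genes, 44.6% were then called in either direction. Without any other single library 1 to 3 of 10 members were called, where 18.2% to 39.5% of all genes were. The count was 1 without AD-HFD-1, AD-HFD-2, Sham-1 or Sham-4, where 18.2% to 23.2% of all genes were called. It was 2 without AD-HFD-4, Sham-2 or Sham-3, where 20.5% to 25.6% were. For AD against Sham it was 5 without AD-HFD-3 (Gria1, Gria2, Gria3 and Grin2a lower, Grin2d higher), where 11.8% of all genes were called. It was 2 without AD-HFD-4, where 9.34% of all genes were called, and also 2 without AD-3, where 12.1% were. It was 0 without AD-HFD-2, any 1 Sham library or any 1 AD library other than AD-3. In those fits 1.56% to 4.9% of all genes were called.

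The neuron markers moved with the groups, and a fit with their mean log2 CPM as a covariate was added after the data were seen. The covariate alone separates AD-HFD from Sham, with at most 9.12 in AD-HFD and at least 9.31 in Sham. In this fit 0 members were called in AD-HFD against Sham, where 0.0902% of all genes were: Gria3 was at -0.73 ± 0.350, adjusted p = 0.535, Gria2 at -0.07 ± 0.320, adjusted p = 0.970 and Gria4 at -0.10 ± 0.575, adjusted p = 0.977. For AD against Sham the calls were Gria3 (-1.20 ± 0.230, adjusted p = 0.0138) and Gria2 (-1.15 ± 0.212, adjusted p = 0.0118), both lower, and Grin2d, higher. In that comparison 7.12% of all genes were called in either direction. The covariate ran from 8.93 to 9.312 in AD and from 9.305 to 9.66 in Sham. These groups barely overlapped in it, so the fit cannot cleanly part group from neuron marker level.

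**Figure D4:**
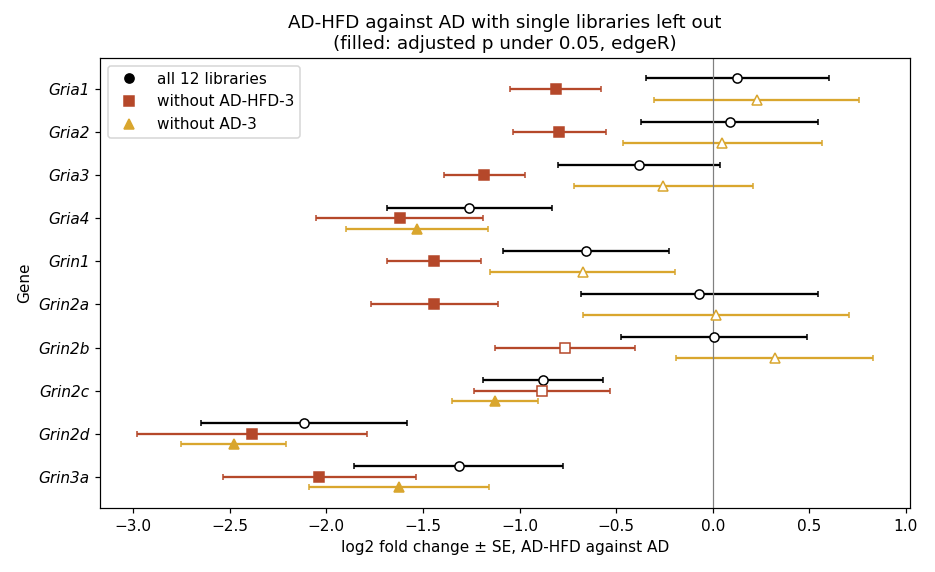
Log2 fold change in AD-HFD against AD with 1 SE (horizontal) for each subunit gene (vertical), with all 12 libraries (circles), without AD-HFD-3 (squares) and without AD-3 (triangles); filled marks passed an adjusted p under 0.05. No circle, 8 squares and 4 triangles are filled, and all filled marks lie below 0.

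Shares within the AMPA family separated AD from the other groups for Gria2. Shares are of the summed Gria1 to Gria4 counts in a library, and since transcript lengths were not used they compare libraries for 1 gene, not genes with each other. Gria2 made up 44.1%, 44.1%, 48.9% and 41.2% of AMPA counts in AD-HFD-1 to AD-HFD-4, 34.0%, 33.6%, 37.3% and 38.2% in AD-1 to AD-4, and 44.0%, 47.7%, 44.0% and 46.8% in Sham-1 to Sham-4. Every AD library lay below every AD-HFD and every Sham library in this share, AD-3 included. Gria4 made up 23.5%, 17.6%, 10.8% and 15.9% in the AD-HFD libraries, 33.7%, 35.7%, 12.3% and 29.5% in the AD libraries, and 11.8%, 12.7%, 12.2% and 12.2% in the Sham libraries. AD libraries 1, 2 and 4 had the highest Gria4 shares, while AD-3 lay within Sham. Gria3 took 18.6%, 22.6%, 22.5% and 27.9% in AD-HFD, 22.0%, 20.2%, 33.6% and 19.8% in AD, and 33.8%, 27.4%, 32.0% and 28.0% in Sham. The ratio of Gria1 to Gria2 counts ran from 0.314 to 0.365 in AD-HFD, from 0.305 to 0.453 in AD and from 0.239 to 0.276 in Sham. Both disease groups thus lay above Sham in that ratio in every library, including AD-3 and AD-HFD-3. The ratio of Gria3 to Gria2 overlapped Sham in both disease groups. That of Gria4 to Gria2 lay above Sham in every AD library and overlapped it in AD-HFD. These shares and ratios were not tested, and how often other genes or gene pairs separate the groups as fully was not counted. Their 95% exact binomial intervals span at most 3.16 percentage points for the AMPA genes, and cover counting error only.

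Among the GluN2 genes, Grin2a made up 7.1%, 7.2%, 28.4% and 7.0% of summed Grin2a to Grin2d counts in AD-HFD-1 to AD-HFD-4, 7.9%, 6.2%, 20.0% and 4.6% in AD-1 to AD-4, and 27.3%, 20.9%, 21.9% and 25.9% in Sham-1 to Sham-4. AD-HFD-3 and AD-3 were the disease libraries with a share near that of Sham. Grin2d made up 11.5%, 15.6%, 15.7% and 21.9% in the AD-HFD libraries, 31.9%, 42.9%, 10.6% and 39.3% in the AD libraries, and 13.0%, 13.5%, 13.4% and 13.2% in the Sham libraries. The Sham libraries lay close together in this share and AD libraries 1, 2 and 4 far above them. Grin2c held the largest shares in AD-HFD-1, AD-HFD-2 and AD-HFD-4, with 71.1%, 69.7% and 60.4%, against 37.1% in AD-HFD-3, 47.8% to 54.9% in AD and 47.3% to 54.1% in Sham. The ratio of Grin2d to Grin2b counts was 0.833 to 2.09 in AD-HFD, 6.01 in AD-1, 15.8 in AD-2, 0.492 in AD-3 and 8.15 in AD-4, against 0.977 to 1.17 in Sham. The ratio of Grin2a to Grin2b counts was 0.653 to 1.51 in AD-HFD, below the 1.81 to 2.21 of Sham in every library, and 0.927 to 2.29 in AD. Intervals of the GluN2 shares span at most 6.45 percentage points. The GluN2 shares and ratios were not tested either, nor set against those of other genes.

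**Figure D5:**
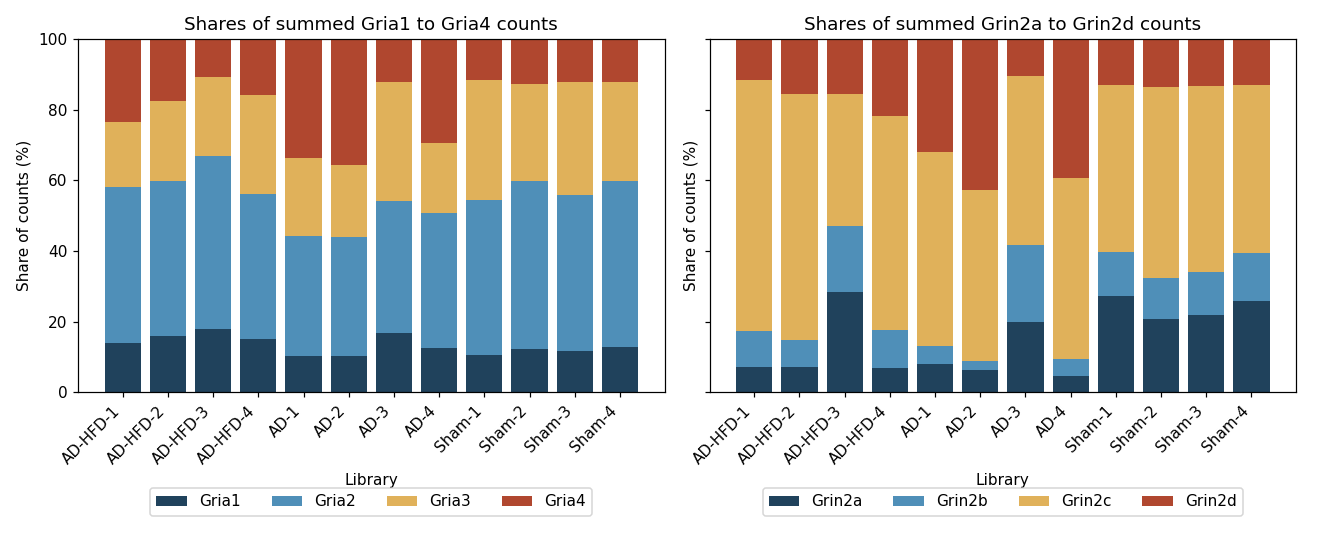
Share of each gene in the summed AMPA counts (Gria1 to Gria4) and in the summed GluN2 counts (Grin2a to Grin2d) of a library, in percent, with the libraries from AD-HFD through AD to Sham. Grin2d takes 31.9% to 42.9% of GluN2 counts in AD libraries 1, 2 and 4 and 10.6% in AD-3.

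Summed over the family, AMPA subunit RNA stood at 260.3, 246, 818 and 126 CPM in AD-HFD-1 to AD-HFD-4, 521, 449.5, 392 and 423 CPM in AD-1 to AD-4, and 1187, 1084, 931 and 1199 CPM in Sham-1 to Sham-4. Summed NMDA subunit RNA (Grin1, Grin2a to Grin2d and Grin3a) stood at 127, 222, 514 and 109.9 CPM in the AD-HFD libraries, 483, 393, 337 and 419 CPM in the AD libraries, and 560.2, 426, 484 and 547 CPM in the Sham libraries. The AMPA sum was lower than in Sham in all 8 disease libraries. The NMDA sum overlapped Sham through AD-HFD-3 alone in AD-HFD and through AD-1 alone in AD. The other disease libraries lay below the lowest Sham value of 426 CPM. Grin1 made up most of the NMDA sum in Sham, with 483 of 560.2 CPM in Sham-1.

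Each member was also set beside the genes whose pattern over the 12 libraries was most like its own, among 9681 other genes with a symbol and a mean of at least 10 CPM. The measure was the root mean square difference of log2 CPM, each gene centred on its own mean. Among the 3 nearest to Gria1 was Fbxo41, at 0.217 log2 units, and among those nearest to Gria2 was the scaffold gene Dlg3, at 0.244. Gria3 was nearest to Sidt1 at 0.208, and among the 3 nearest to Gria4 was Gdap1, at 0.200. For Grin1 the nearest were Wnk2 at 0.116, Dnm1 (dynamin, which cuts off synaptic vesicles) at 0.117 and Cacna1b (the N-type calcium channel) at 0.145. Grin2a was nearest to Celsr2 at 0.285 and Frrs1l, an AMPA receptor assembly protein, at 0.294, and Grin2b to the potassium channel gene Kcnma1 at 0.208. Grin2c was nearest to Cntfr at 0.226 and Grin3a to Tmem150c at 0.233. Grin2d, the member with the widest spread over the libraries (SD 1.14 log2 units), had no gene closer than 0.414 (Tmem91). Within the family, Gria1 and Gria2 were the closest pair, at 0.249, followed by Gria2 and Gria3 at 0.302 and Gria4 and Grin3a at 0.320, and Gria3 and Grin2d were farthest apart, at 1.59.

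Of the genes listed with the other ionotropic glutamate receptors, 9 were tested, among them Grin3b, the kainate subunits Grik1 to Grik5 and Grid1. The list also held Grina, an NMDA receptor-associated protein that is not itself a channel subunit. Grin3b, the second GluN3 subunit gene, rose in both disease groups. It averaged 4.42 ± 1.65 CPM in AD-HFD, 4.46 ± 1.11 CPM in AD and 1.35 ± 0.746 CPM in Sham (SD, n = 4 each). Its log2 fold change was 1.71 ± 0.382 in AD-HFD against Sham (adjusted p = 0.00812) and 1.73 ± 0.382 in AD against Sham (adjusted p = 0.0240). The first call was kept in each fit that left out 1 library, and the second was lost without AD-4, Sham-1, Sham-2 or Sham-4. It was the one gene of the 9 called higher in either comparison, where 19.7% of all genes were in AD-HFD against Sham and 3.07% in AD against Sham. Of the 9, 4 were called lower in AD-HFD against Sham, where 12.9% of all genes were, among them Grid1 (-1.03 ± 0.278, adjusted p = 0.0173) and the kainate subunit Grik2 (-1.12 ± 0.340, adjusted p = 0.0268). That count was 6 without AD-HFD-3 or AD-3 and 3 without Sham-2. It was 2 without any 1 of the other AD-HFD and AD libraries, and 1 without any 1 Sham library but Sham-2. For this and the next lists, fits without 1 library called 18.2% to 44.6% of all genes in AD-HFD against Sham. In AD against Sham they called 1.56% to 12.1%. The list's median was -1.03 in AD-HFD against Sham and -0.39 in AD against Sham, against 0.03 and 0.06 over all genes.

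Among 19 of 21 listed AMPA auxiliary and assembly proteins that were tested, 3 were called lower and 0 higher in AD against Sham, and 7 lower and 0 higher in AD-HFD against Sham. Of all genes, 3.16% were called lower and 3.07% higher in AD against Sham, and 12.9% lower and 19.7% higher in AD-HFD against Sham. Cacng3, a stargazin relative that escorts AMPA receptors to synapses, was at 32.3 ± 6.58 CPM in AD and 162 ± 29.7 CPM in Sham, a log2 fold change of -2.32 ± 0.346 (adjusted p = 0.00471). In AD-HFD it was at 40.3 ± 23.5 CPM, also called lower than in Sham (adjusted p = 0.00324). Nptx1, a secreted pentraxin that clusters AMPA receptors, fell in both as well, at -1.43 ± 0.465 in AD-HFD against Sham (adjusted p = 0.0347) and -1.85 ± 0.471 in AD against Sham (adjusted p = 0.0402). So did Abhd6, which limits delivery of AMPA receptors to the surface, at -1.12 ± 0.227 (adjusted p = 0.00556) and -0.96 ± 0.227 (adjusted p = 0.0304). The 3 of AD against Sham became 8 without AD-HFD-3, 6 without AD-3, and 1 without AD-2, AD-4 or any 1 Sham library. The 7 of AD-HFD against Sham became 12 without AD-HFD-3, 4 without AD-HFD-2, and 2 without AD-HFD-1, AD-HFD-4, Sham-1, Sham-3 or Sham-4.

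Among scaffold and trafficking proteins, 22 of 23 were tested; in AD-HFD against Sham 8 were called lower and 1 higher, and in AD against Sham 0, with 4 lower and 1 higher at an unadjusted p under 0.05. The shares over all genes were 12.9% lower and 19.7% higher in the first, and 10.7% lower and 13.3% higher at that unadjusted p in the second. The gene that rose was Homer3, a Homer scaffold (1.59 ± 0.351, adjusted p = 0.00771), and those that fell included Dlg3, the synaptic scaffold SAP102 (-1.48 ± 0.395, adjusted p = 0.0162), Nsf, an ATPase that binds GluA2 (-1.30 ± 0.347, adjusted p = 0.0166), and Pick1 (-0.51 ± 0.148, adjusted p = 0.0236). The count of lower genes was 13 without AD-HFD-3, 5 without AD-1 or AD-4, and 2 to 4 without AD-HFD-1, AD-HFD-2, AD-HFD-4 or any 1 Sham library. The 0 of AD against Sham became 4 without AD-3, 2 without AD-HFD-4 and 3 without AD-HFD-3. Of 17 receptor kinases and phosphatases, 8 were called lower in AD-HFD than in Sham and 0 higher, and 2 lower in AD than in Sham, where 12.9% and 3.16% of all genes were called lower. Camk2g, a CaMKII subunit, was at -1.69 ± 0.312 in AD-HFD against Sham (adjusted p = 0.00409), and Ppp3ca, a calcineurin catalytic subunit, at -1.61 ± 0.422 in AD-HFD against Sham (adjusted p = 0.0152) and -1.65 ± 0.422 in AD against Sham (adjusted p = 0.0405). Akap5, which anchors kinases and calcineurin near the receptors, was the other gene called in AD against Sham (-2.74 ± 0.668, adjusted p = 0.0345). The 8 became 14 without AD-HFD-3, 4 without AD-HFD-1, AD-HFD-2, AD-HFD-4 or Sham-1, and 5 without Sham-3 or Sham-4. The 2 became 0 without any 1 Sham library or any 1 AD library other than AD-3, and 5 without AD-HFD-3.

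Of the metabotropic glutamate receptors, 6 of 7 were tested, and 2 were called lower in AD-HFD than in Sham, where 12.9% of all genes were, Grm8 (-1.45 ± 0.337, adjusted p = 0.00933) and Grm5 (-1.58 ± 0.507, adjusted p = 0.0333). That count was 5 without AD-HFD-3, 4 without AD-3, and 1 without AD-HFD-1, AD-HFD-2 or any 1 Sham library. None was called in AD against Sham, with 1 lower at an unadjusted p under 0.05, where 10.7% of all genes were. Of the genes of glutamate transport and co-agonist supply, 14 of 16 were tested, and 2 were called higher and 2 lower in AD-HFD than in Sham. That is close to the shares over all genes, 19.7% higher and 12.9% lower. Without single libraries the count of lower genes was 1 to 3, with 1 after leaving out AD-2, any 1 Sham library or any 1 AD-HFD library but AD-HFD-3, and 3 after leaving out AD-3 or AD-HFD-3. Glul, the astrocytic glutamine synthetase, rose (0.98 ± 0.220, adjusted p = 0.00813), as did Shmt2, a mitochondrial enzyme that makes glycine (1.37 ± 0.319, adjusted p = 0.00952). Slc1a2, the main glial glutamate transporter, was among those that fell (-0.82 ± 0.274, adjusted p = 0.0394). The 2 called in AD against Sham, where 3.07% of all genes were called higher, were both higher, Slc17a6, the vesicular glutamate transporter of thalamus and brain stem (3.82 ± 0.687, adjusted p = 0.0107), and Dao, which breaks down D-serine (4.86 ± 1.06, adjusted p = 0.0185). The count became 1 without any 1 Sham library, 4 higher and 1 lower without AD-3, and 3 higher and 1 lower without AD-HFD-3. In AD-HFD against AD no gene of these 6 lists was called by edgeR with all libraries, and of the 87 genes tested 21 were lower and 2 higher at an unadjusted p under 0.05, where 13.4% of all genes were lower and 17.1% higher. Without AD-HFD-3, 27.6% of all genes were called in either direction. The genes then called lower in AD-HFD than in AD numbered 6 auxiliary proteins, 10 scaffolds, 7 kinases and phosphatases and 5 metabotropic receptors. Also lower were 5 genes of the other ionotropic list, Grina among them, and 5 transport genes, and 1 transport gene was called higher. Without AD-3, where 30.3% of all genes were called in either direction, the calls differed in direction among the lists. Scaffolds then had 5 higher and 1 lower, auxiliary proteins 2 higher and 2 lower and transport genes 2 higher and 5 lower. Kinases and phosphatases had 3 lower, the other ionotropic list 3 lower (Grina among them) and metabotropic receptors 2 lower, with 0 higher in each.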

How the data were processed

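RNA from 12 brain samples was sequenced, with 4 libraries in each of the AD-HFD, AD and Sham groups, which were taken from the sample titles together with their replicate numbers. Per the labels' protocols, TRIzol was used to extract total RNA, and a Yeasen dual-mode mRNA kit to make libraries. FastQC and Trimmomatic were used, without versions, per the submitters' processing notes. The aligner, counting program, strand setting, genome build and annotation are not given in the sources used here. Genes that overlap on opposite strands therefore cannot be told apart, and promoter coordinates are those of the RefSeq tables.

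The authors deposited 1 table of raw read counts per gene, with 22050 Ensembl genes and 9127 new loci, which stayed in the library sizes and tests. The counts were fitted with edgeR 4.0.16 in R 4.3.3: filterByExpr by group, TMM scaling, and the non-legacy quasi-likelihood test with 1 mean per group over all 12 libraries. The threshold was an adjusted p of 0.05 (Benjamini-Hochberg over all genes tested). SEs were derived from each log2 fold change and its F statistic, and CPM use TMM-scaled library sizes. The biological coefficient of variation (square root of the common dispersion) came to 0.415. The test was checked on simulated counts drawn independently for each gene. They held no tissue differences shared by many genes, so the check does not cover unlike libraries such as AD-3 and AD-HFD-3. No library pair agreed within sampling noise (chi-square per degree of freedom at least 17.4 over genes with 10 or more counts in the pair). Intervals cover counting error only.

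The members, the 20 gene and marker lists and the tests were chosen with earlier results of these data known. The genes named are all members, up to 4 genes with the smallest p in each list and comparison, the region and neuron markers, and the 3 genes nearest in pattern to each member. A few genes named by it are not reported here. Alternatives were DESeq2 1.42.0, limma voom (limma 3.58.1), the legacy method, other scalings, filters and limits, the replicate block, the compared groups alone, and leaving out libraries. The neuron marker mean as a covariate and the fit without AD-3 and AD-HFD-3 were added after the data were seen. The figures were drawn with matplotlib 3.10.9.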

Additional observations from a re-analysis of the deposited data

Results flagged for a closer look

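In 5 of 30 sets of 4 libraries, 1 per member and group, the highest or lowest library lay far from the other 3 for the range of its group. Chance gives about 1 such set in 20. Grin2b was at 13.9 CPM in AD-HFD-3, above the other AD-HFD libraries, and at 11.8 CPM in Sham-4, above the other Sham libraries. Grin2d was at 4.80 CPM in AD-3, below the other AD libraries. Grin3a was at 3.02 CPM in AD-3, below the other AD libraries, and at 6.58 CPM in Sham-2, below the other Sham libraries.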

How the results depend on the processing

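Over 810 alternative values of the members' log2 fold changes, 656 kept their direction and side of the threshold. Of the others that kept their direction, 72 passed only under the alternative and 30 only as reported. The remaining 52 changed sign, and 4 of these passed under the alternative. Leaving out 1 library moved the count of called members to 1 to 8 for AD-HFD against Sham, to 0 to 8 for AD-HFD against AD and to 0 to 5 for AD against Sham. In the same order, the share of all genes called ran from 18.2% to 44.6%, from 0% to 30.3% and from 1.56% to 12.1%. The shares in brackets below are of all genes, called in either direction. In AD against Sham the count was 3 by DESeq2 (13.8%), 0 by the legacy method (4.55%), 3 at an adjusted p under 0.1 (12.4%) and 0 under 0.01 (1.05%). It was 5 with the 2 groups alone (13.1%) and 4 without libraries 3 and 4 of AD-HFD (14.1%). It was 3 with the neuron marker mean as a covariate (7.12%) and 6 without AD-3 and AD-HFD-3 (20.3%). In AD-HFD against AD it was 3 by DESeq2 (17.6%) and 3 at an adjusted p under 0.1 (18.2%). It was 2 without libraries 3 and 4 of AD-HFD (9.56%), and 9 without AD-3 and AD-HFD-3 (45.1%). In AD-HFD against Sham it was 6 by voom (31.1%), 5 at an adjusted p under 0.1 (43.9%), 1 under 0.01 (11.5%) and 2 with the 2 groups alone (33.6%). It was 7 without libraries 3 and 4 of AD-HFD (32.1%), 0 with the covariate and 9 without AD-3 and AD-HFD-3 (53.5%). The covariate moved with the groups, since its largest AD-HFD value, 9.12, lay below its smallest Sham value, 9.305. Its largest AD value, 9.312, was barely above that Sham value. With the covariate, 0.0902% of all genes were called in AD-HFD against Sham. The counts by other scalings and filters were within the limits of 1.5 times.

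With the replicate block, 4 members were called in AD-HFD against Sham (27.4% of all genes), 0 in AD-HFD against AD (0.0265%) and 1 in AD against Sham (4.51%). In the first of these Gria4 was lost (adjusted p = 0.0575) and Gria1 and Grin1 were added. Same-numbered libraries correlated at -0.317 to 0.0947 over 12 pairs, and 1, 1 and 0 of 4 libraries correlated best with their own number in the 3 comparisons, so the numbers are not taken to pair the libraries.

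These log2 fold changes changed sign. In AD against Sham, Gria4 ran from -0.23 to 0.19 without single libraries, and was 0.25 with the covariate and 0.18 without AD-3 and AD-HFD-3. Grin1 was 0.0067 with the covariate. With AD-3 the lone AD library, Grin2b was 0.087, Grin2c -0.78, Grin2d -1.03 and Grin3a -1.39. In AD-HFD against AD, values without single libraries ran from -0.81 to 0.42 for Gria1, -0.79 to 0.39 for Gria2, -1.44 to 0.24 for Grin2a and -0.76 to 0.32 for Grin2b. Gria1 was -0.29 by voom, -0.15 with the block, -0.13 with AD-3 alone, -0.55 without libraries 3 and 4 of AD-HFD and -0.77 without AD-3 and AD-HFD-3. Gria2 was -0.32 by voom, -0.18 with the block, -0.51 without libraries 3 and 4 of AD-HFD and -0.89 without AD-3 and AD-HFD-3. Grin2b, near 0 as reported, was -0.017 by DESeq2, -0.13 by voom, -0.015 with other size factors, -0.011 with no filter, -0.089 with the block, -0.016 with the 2 groups alone, -0.64 with AD-3 alone, -0.69 without libraries 3 and 4 of AD-HFD and -0.51 without AD-3 and AD-HFD-3. With AD-3 alone, Gria4 was 0.15, Grin2c 0.32, Grin2d 0.68 and Grin3a 0.51, and with the covariate Gria3 was 0.47, Grin1 0.30 and Grin2a 1.02. In AD-HFD against Sham, the covariate gave 0.33 for Gria1, 0.30 for Grin1, 0.49 for Grin2a, 0.53 for Grin2b, 0.064 for Grin2c, 0.47 for Grin2d and 0.83 for Grin3a. The cause of these changes was not tested. With 1 library left out, the mean Grin2a share of GluN2 counts in AD-HFD ran from 7.12% to 14.2%, and the mean ratio of Grin2d to Grin2b counts in AD from 4.88 to 9.99. Depth limits Grin3a, Grin2a and Grin2b most, with 36 reads as the lowest count.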

Other observations

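The members were also set against the general neuron markers of the same library, a measure chosen after the values were seen and not tested. By it some members stayed below Sham and others did not. The share of all genes that did so was not counted. The value is the log2 CPM of the member minus the mean log2 CPM of the 10 neuron markers. For Gria3 it ran from -2.42 to -1.60 in AD-HFD, from -2.80 to -1.89 in AD and from -1.34 to -1.02 in Sham, so both disease groups lay below Sham in every library. Gria2 ran from -2.07 to -1.69 in AD, below the -0.88 to -0.29 of Sham, and from -1.46 to -0.47 in AD-HFD, which overlapped Sham. The AD values of Gria1 also lay below Sham, at -3.76 to -2.88 in AD against -2.78 to -2.22 in Sham, and its AD-HFD values overlapped Sham at -2.93 to -1.93. Grin1 overlapped Sham in both groups, with -1.26 to -0.37 in AD-HFD, -1.20 to -0.76 in AD and -0.88 to -0.68 in Sham. Grin2a lay below Sham in every AD library, at -6.74 to -5.74 against -5.68 to -4.99, and its AD-HFD values overlapped Sham. Gria4, Grin2b, Grin2c and Grin3a overlapped Sham in both disease groups. Grin2d lay above Sham in every AD-HFD library by this measure, at -5.66 to -4.32 in AD-HFD against -6.50 to -5.96 in Sham, while AD ran from -6.65 to -3.66. The subtracted neuron marker mean was itself lower in every AD-HFD library, at 7.07 to 9.12 against 9.31 to 9.66 in Sham. A gene of unchanged level thus comes out higher in AD-HFD. Before the subtraction Grin2d was at 4.11 to 11.6 CPM in AD-HFD and 8.88 to 11.6 CPM in Sham, with a log2 fold change of -0.34.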
